A study of Mus musculus with 15 samples.

Results

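The RNA of murine embryonic stem cells (mESC) after 72 h of Smarcb1 knockdown (72 h kd) was compared with that of untreated cells sampled at 48 h (48 h ctrl). The comparison takes in 6 of the 15 libraries, the 3 labelled 72 h kd and the 3 labelled 48 h ctrl, as named in the sample titles. All libraries come from the 81K1 line, which is based on OG2 and descends from 1 clone, K1, and which carries an anti-Smarcb1 shRNA cassette in the Rosa26 locus under a doxycycline-dependent promoter. The kd cells received 1 µg doxycycline per ml of medium daily, and the ctrl cells were left untreated. Cells of every group grew on gelatine with serum and LIF. No 72 h ctrl group was analysed here, so duration of culture and knockdown cannot be told apart within the 6 libraries. A line that lacks the shRNA but received doxycycline was not analysed here, so responses to doxycycline itself cannot be told apart from the knockdown either. The 3 libraries of untreated cells at 240 h (240 h ctrl) are therefore given beside the main values, together with the kd libraries of 48 h and 240 h.

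Smarcb1 encodes a core subunit of the BAF complexes, the mammalian SWI/SNF remodellers that use ATP to move nucleosomes and keep enhancers and promoters accessible. In mESC a specialised form of the complex works beside the pluripotency factors Oct4 (gene Pou5f1), Sox2 and Nanog. The polycomb complexes PRC1 and PRC2 modify histones at repressed developmental genes and are known to oppose BAF.

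Levels are FPKM, fragments per kilobase of gene span scaled to the depth of the library, where the span runs over exons and introns alike. Reads were recovered from them, and the ctrl libraries of 48 h held 11086920 to 13716912 reads and those of 72 h kd 12353047 to 13277221. A gene was tested when it had a mean of 10 or more reads over the 6 libraries, which left 16146 of 55228 genes. It was called at a limma adjusted p below 0.05 and an absolute log2 fold change above 0.58, on the log2(RPM + 0.1) scale, where RPM is the read number scaled to library size. The labels do not say whether replicates were separate cultures, so the p-values measure the spread between these libraries, which may be technical.

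Of the 16146 genes tested, 3597 (22.3%) were called in 72 h kd against 48 h ctrl. 1983 (12.3%) were higher and 1614 (10.0%) were lower. The 3 libraries of one group lay wholly above the 3 of the other in 65.2% of the genes tested and in 3515 of the genes called. The median log2 fold change over all genes tested was 0.02. Changes above 2-fold were found in 749 called genes that rose and 704 that fell, and changes above 4-fold in 73 and 130. A mean below 50 reads lay behind 1365 of these calls. Long intergenic noncoding RNA genes were called in 136 of 358 (38.0%), 57 higher and 79 lower, against 21.6% of the protein-coding genes, whose 2886 calls were 1617 higher and 1269 lower.

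**Figure D1:**
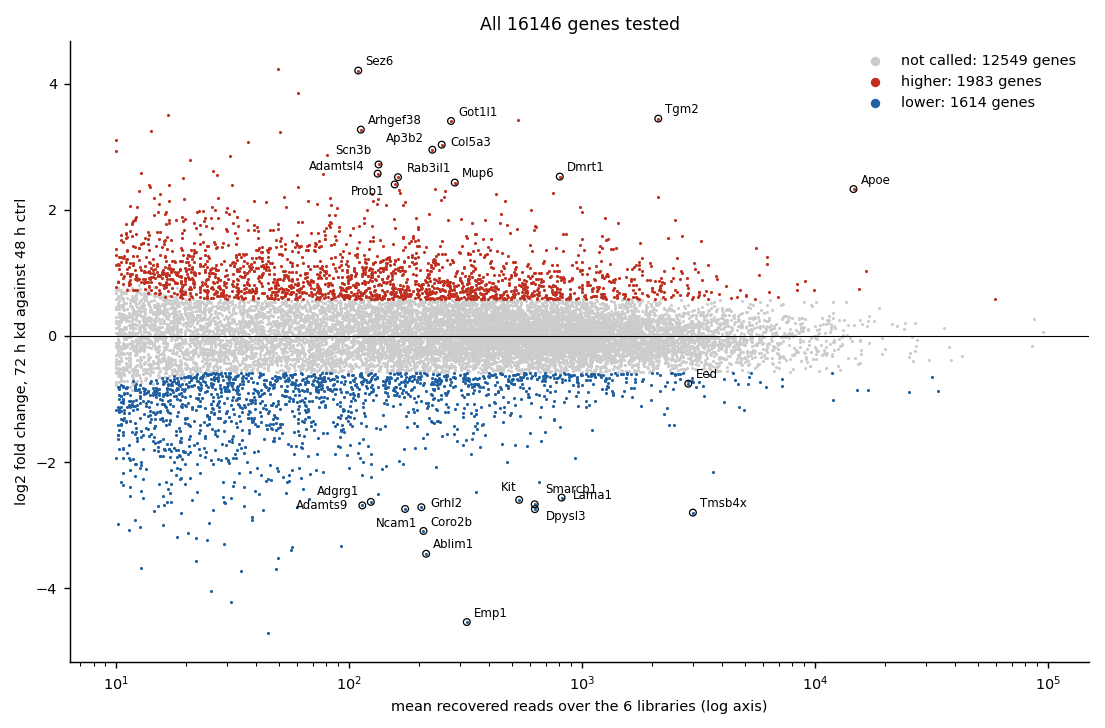
Log2 fold change of each gene tested, 72 h kd against 48 h ctrl (vertical axis), against its mean recovered reads over the 6 libraries (horizontal log axis). Red points are the 1983 genes called higher, blue points the 1614 called lower and grey points the 12549 not called. Apoe stands out at a high read number, and Emp1 lies lowest among the labelled genes.

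Smarcb1 transcript, the target of the shRNA, was low in every kd library. The 48 h ctrl libraries had 3.41, 3.46 and 3.93 FPKM and the 72 h kd libraries 0.541, 0.639 and 0.512 FPKM. The groups did not overlap, and 15.7% of the ctrl mean remained, from 169 to 196 reads per library. The log2 fold change was -2.67 (SE 0.08, limma adjusted p = 5.7e-19). Against the 48 h kd libraries the difference was -0.17 (adjusted p = 0.38), a value that did not pass the test.

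Apoe, which encodes the lipid carrier apolipoprotein E, had 120.3, 123 and 129.7 FPKM in 48 h ctrl and 616, 628 and 631 FPKM in 72 h kd. All 3 kd libraries lay far above the ctrl libraries, with a ratio of means of 5.03 and 23886 to 25815 reads each. The log2 fold change was 2.33 (SE 0.04, limma adjusted p = 3.32e-24). Mean levels (± SD, n = 3 each) were 319 ± 40.03 FPKM for 48 h kd, 119.9 ± 8.03 for 240 h ctrl and 222 ± 5.06 for 240 h kd, so 72 h had the highest mean of the 5 groups.

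Tgm2 encodes tissue transglutaminase, an enzyme that crosslinks proteins and is known as a target of retinoic acid. It had 0.864, 0.898 and 1.03 FPKM in 48 h ctrl and 10.1, 9.85 and 10.5 FPKM in 72 h kd. The group means lay 10.9-fold apart, a log2 change of 3.45 (SE 0.05, limma adjusted p = 4.92e-24). On chromosome 2 the gene overlaps Rprd1b and Gm20412, and reads were counted irrespective of strand. Rprd1b was called higher by 1.84 and Gm20412 by 3.43, and how far these genes share the reads was not tested.

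Eed, the subunit of PRC2 that binds trimethylated H3K27, had 11.5, 10.9 and 10.7 FPKM in 48 h ctrl and 6.44, 6.89 and 6.28 FPKM in 72 h kd. The 3 kd libraries lay below all ctrl libraries at 59.2% of the ctrl mean, a log2 change of -0.76 (SE 0.04, limma adjusted p = 1.22e-13). Mean Eed levels (± SD, n = 3 each) were 10.1 ± 0.140 FPKM for 48 h kd, 11.6 ± 0.293 for 240 h ctrl and 10.9 ± 0.220 for 240 h kd. The change at 240 h was -0.09 (adjusted p = 0.0802), and the 72 h and 240 h changes differed by -0.67 (interaction over 12 libraries, limma adjusted p = 4.39e-09).

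**Figure D2:**
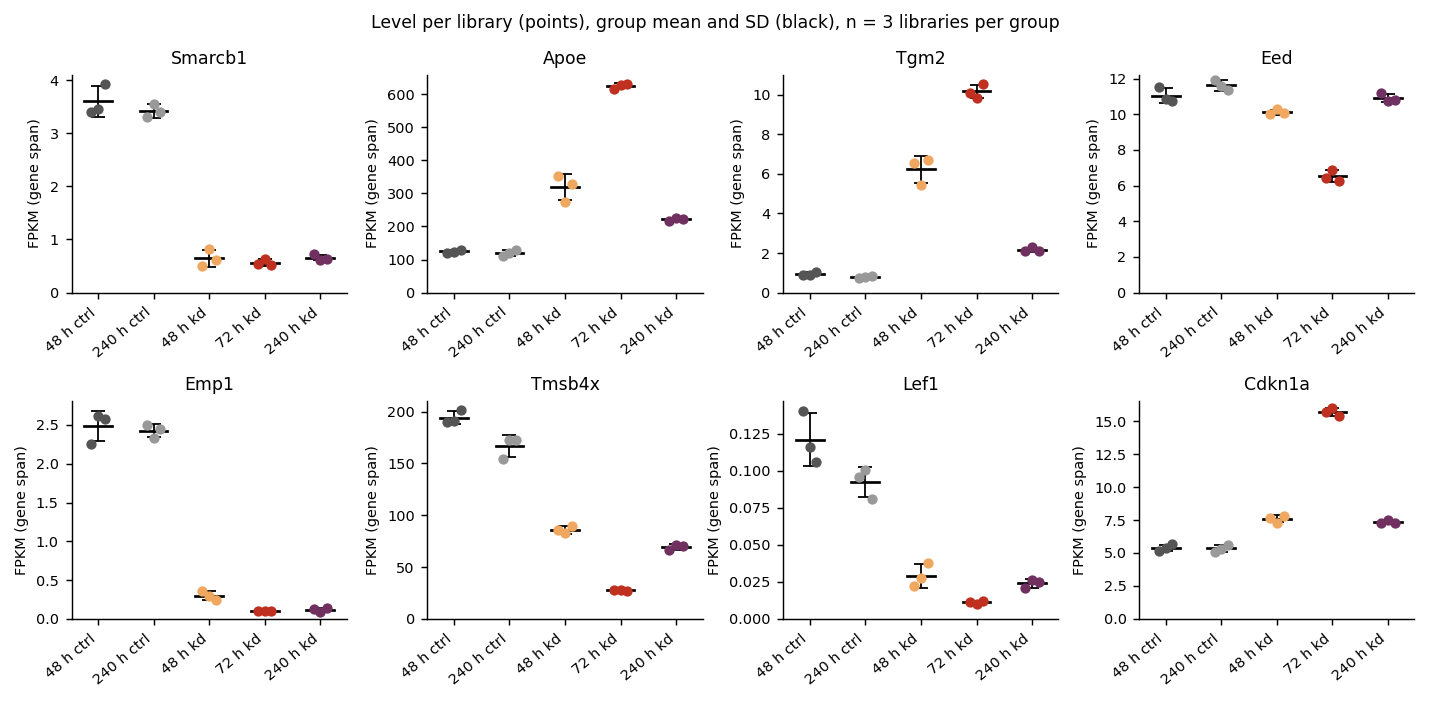
Level in FPKM per gene span of Smarcb1, Apoe, Tgm2, Eed, Emp1, Tmsb4x, Lef1 and Cdkn1a in each of the 15 libraries, by group, with vertical axes from 0. Points are libraries, lines are group means and bars are SD (n = 3). Smarcb1 is low in all 3 kd groups, whereas the means of Apoe, Tgm2 and Cdkn1a are highest, and those of Eed and Tmsb4x lowest, at 72 h.

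Promoter sequences are shown for Apoe, the abundant gene with a large rise, for Emp1, the gene with the largest fall among those named, and for Tmsb4x, the most abundant of the largest falls. Each run is the 250 bases before the RefSeq start site (GRCm38.p6), read 5′ to 3′ on the gene's strand, and capitals mark the CG pairs, the sites of DNA methylation. The Apoe window is chr7:19699189-19699438 on the minus strand, the Emp1 window chr6:135362681-135362930 on the plus strand and the Tmsb4x window chrX:167209219-167209468 on the minus strand. The RefSeq start lies 386 bases from the annotated gene start in Emp1 and 97 bases in Tmsb4x.
Apoe: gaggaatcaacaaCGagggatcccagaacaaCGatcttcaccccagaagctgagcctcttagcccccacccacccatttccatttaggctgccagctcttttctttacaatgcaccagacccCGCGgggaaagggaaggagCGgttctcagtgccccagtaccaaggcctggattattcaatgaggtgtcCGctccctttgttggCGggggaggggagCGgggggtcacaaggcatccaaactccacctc
Emp1: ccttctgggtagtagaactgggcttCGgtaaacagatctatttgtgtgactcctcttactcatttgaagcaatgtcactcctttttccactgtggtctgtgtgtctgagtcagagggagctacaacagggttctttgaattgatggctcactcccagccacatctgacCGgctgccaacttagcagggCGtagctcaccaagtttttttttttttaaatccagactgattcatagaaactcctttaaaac
Tmsb4x: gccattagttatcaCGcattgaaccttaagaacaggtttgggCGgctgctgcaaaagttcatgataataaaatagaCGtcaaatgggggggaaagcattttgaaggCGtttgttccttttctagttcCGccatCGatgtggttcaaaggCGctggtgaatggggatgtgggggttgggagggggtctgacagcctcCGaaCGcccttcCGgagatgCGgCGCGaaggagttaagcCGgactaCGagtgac
The Emp1 window holds 3 CG pairs, the Apoe window 8 and the Tmsb4x window 15, where the median of all 32851 promoters in the RefSeq table was 6. As few CG pairs as in Emp1 were found in 37.8% of those promoters, as few as in Apoe in 59.7% and as few as in Tmsb4x in 74.6%. The counts describe these windows and were not tested against the changes in level.

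Predicted genes, small RNA genes and genes whose groups overlapped were left out of the ranking by size. Among the other called genes with a mean of 100 or more reads, the 12 largest rises spanned log2 fold changes of 2.40 to 4.21. Sez6, a membrane protein of neurons, had 0.0121, 0.0243 and 0.0146 FPKM in 48 h ctrl and 0.325, 0.344 and 0.347 FPKM in 72 h kd. These levels came from 8 to 13 reads per ctrl library and 201 to 222 per kd library. The difference of 4.21 (SE 0.20, limma adjusted p = 9.09e-15) therefore rests on a low ctrl level. Dmrt1, a transcription factor of testis and germ cells, had 0.173, 0.196 and 0.199 FPKM in 48 h ctrl and 1.09, 1.07 and 1.12 FPKM in 72 h kd, a rise of 2.53 (SE 0.06, adjusted p = 2.27e-20). Col5a3, a chain of collagen V, had 0.115, 0.0862 and 0.0804 FPKM in ctrl and 0.753, 0.755 and 0.820 FPKM in kd, a rise of 3.03. All 3 had ctrl levels under 1 FPKM. Got1l1, related to aspartate aminotransferase, rose by 3.41, and Arhgef38, a guanine nucleotide exchange factor, by 3.27. Ap3b2, a neuronal subunit of the AP-3 vesicle coat, rose by 2.95 and Scn3b, an auxiliary subunit of sodium channels, by 2.72. With Tgm2, the other rises were in Adamtsl4 (2.57), Rab3il1 (2.52), Mup6 (2.43) and Prob1 (2.40). Mup6 belongs to the family of major urinary proteins, whose near-identical copies can share reads, and Prob1 overlaps Gm50318, so their values are uncertain.

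The 12 largest falls under the same limits spanned -4.54 to -2.56. Emp1, a tetraspan protein of the plasma membrane, had 2.26, 2.61 and 2.58 FPKM in 48 h ctrl and 0.0985, 0.106 and 0.102 FPKM in 72 h kd. The kd libraries kept 4.11% of the ctrl mean, from 26 to 28 reads against 598 to 639, a log2 change of -4.54 (SE 0.11, limma adjusted p = 2.27e-20). Tmsb4x, which encodes the actin-sequestering thymosin beta 4, had 189.7, 191 and 202 FPKM in ctrl and 28.1, 28.04 and 27.3 FPKM in kd. It kept 14.3% of its ctrl level, a log2 change of -2.80 (SE 0.04, adjusted p = 1.07e-24).

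Ablim1, an actin-binding protein, fell by 3.45 on the log2 scale, from 356 to 452 reads per ctrl library to 33 to 43 per kd library, and the coronin Coro2b fell by 3.09. Kit, the receptor of stem cell factor, had 0.948, 0.914 and 0.919 FPKM in ctrl and 0.147, 0.146 and 0.163 FPKM in kd, a change of -2.60. Lama1, the alpha 1 chain of laminin, had 0.924, 0.933 and 0.895 FPKM in ctrl and 0.143, 0.175 and 0.147 FPKM in kd, a change of -2.56. Smarcb1 is itself in this set of 12. The remaining falls were in Dpysl3 (-2.75), which acts on the growth cone cytoskeleton, the adhesion molecule Ncam1 (-2.74), the epithelial transcription factor Grhl2 (-2.72), the protease Adamts9 (-2.69) and the adhesion receptor Adgrg1 (-2.63).

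**Figure D3:**
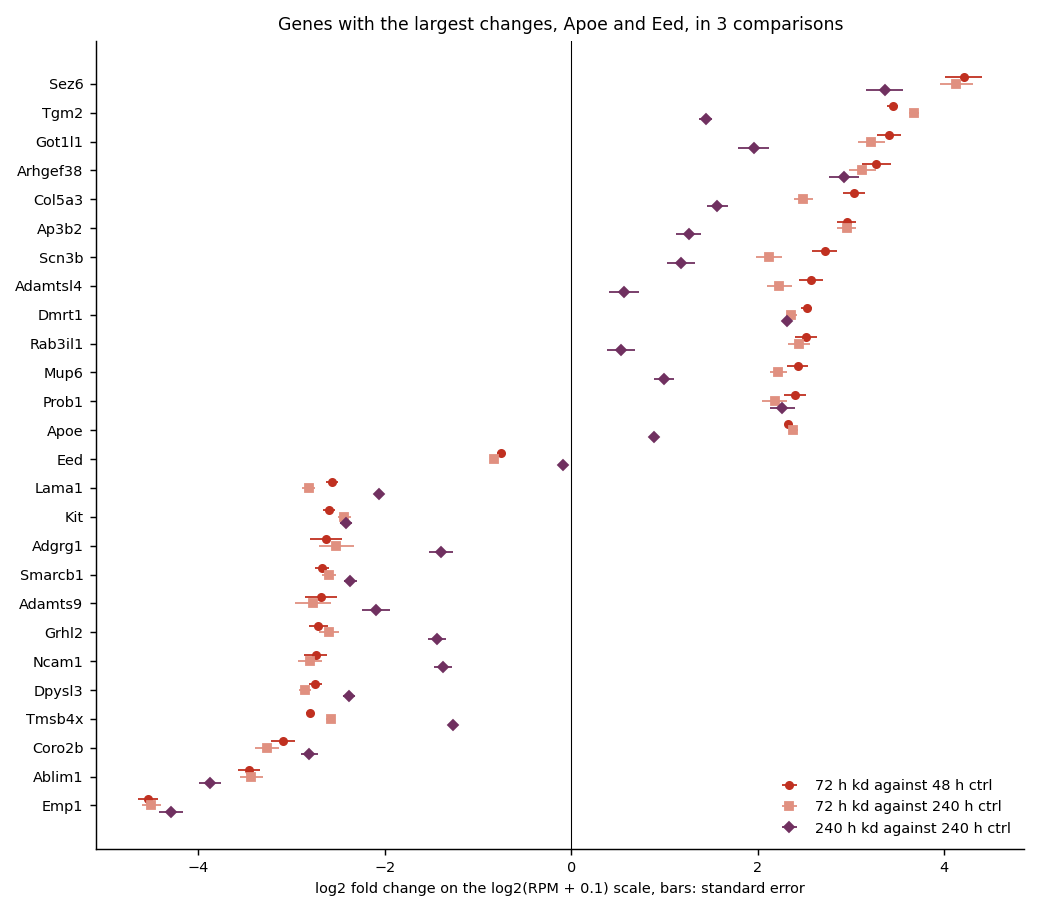
Log2 fold changes (points) with standard errors (bars) on the log2(RPM + 0.1) scale for 26 genes, the 24 with the largest changes, Apoe and Eed, in 72 h kd against 48 h ctrl, 72 h kd against 240 h ctrl and 240 h kd against 240 h ctrl. The first 2 comparisons, which share the 72 h kd libraries, give points at most 0.60 apart, the distance in Scn3b, and for Tgm2, Apoe and Tmsb4x the point of 240 h kd is nearer to 0.

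The untreated cells of 240 h serve as a second control. Set against them, 4214 of 16261 genes (25.9%) were called in 72 h kd, 2341 higher and 1873 lower. This comparison shares the 72 h kd libraries with the main one, so the calls are not independent. Of the 1980 genes called higher against 48 h ctrl and tested here, 1666 were also called higher against 240 h ctrl and 1 was called lower. Of the 1577 called lower and tested, 1294 were also called lower and 0 higher. The untreated groups differed from each other in 221 of 16215 genes (1.36%), 139 higher and 82 lower at 240 h, a count that was 95 without replicate 3 and 125 without replicate 2 of 48 h ctrl. It was 333 with the replicate number as a block. Without a trend in the prior variance limma called 0 genes, with 3905 at an unadjusted p under 0.05. Emp1 differed by -4.51 and Apoe by 2.38 between 72 h kd and 240 h ctrl. Among the 12 largest rises, Scn3b was also called between the groups of untreated cells, where it was higher at 240 h by 0.60 (limma adjusted p = 0.0489), and its rise against 240 h ctrl was 2.12.

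Core pluripotency genes were examined to ask whether the cells still carried the transcripts that define mESC. All 10 genes of the list were tested, and 1 was called higher and 0 lower (10.0% called, median log2 fold change 0.04). This share, and that of each list that follows, is to be read against the 22.3% called over all genes tested, 12.3% higher and 10.0% lower. List counts against 240 h ctrl are to be read against 25.9% of all genes called, and list counts at 240 h against 17.7%. The lists were written with earlier results of these data known, so these shares describe the lists and are no test. Pou5f1 had 257, 274 and 281 FPKM in 48 h ctrl and 248, 266 and 265 FPKM in 72 h kd, a difference of -0.06 (SE 0.04, limma adjusted p = 0.199). Its groups overlapped. Sox2 differed by 0.14 and Nanog by 0.13, both below the fold threshold, with all kd libraries above all ctrl libraries. Sox2 lies within the span of Sox2ot, and Pou5f1 overlaps Gm19553. Zfp42 (Rex1), with 53.9, 53.8 and 55.3 FPKM in ctrl and 39.5, 41.7 and 40.8 FPKM in kd, differed by -0.42, also short of the threshold. The gene called was Dppa5a, which encodes an RNA-binding protein of early embryos and mESC. It had 731, 763 and 800.0 FPKM in ctrl and 1535, 1601 and 1573 FPKM in kd, a rise of 1.04 (SE 0.04, adjusted p = 3.74e-17). Esrrb (-0.14), Sall4 (-0.22), Lin28a (0.16), Utf1 (-0.20) and Tdgf1 (0.25) were not called.

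Of 19 genes of naive pluripotency, the state of the preimplantation epiblast, 2 were higher and 4 lower (31.6% called against 22.3% of all genes, median 0.05). Tcl1, a cofactor of the kinase Akt, had 12.2, 11.8 and 13.03 FPKM in 48 h ctrl and 34.5, 33.9 and 34.4 FPKM in 72 h kd, a rise of 1.47. Nr5a2, a nuclear receptor, rose by 0.58, just past the threshold, and was not called without replicate 3 of 48 h ctrl (0.56) or replicate 1 of 72 h kd (0.56). The transcription factors Tbx3 and Klf4 fell by 1.11 and 0.76 on the log2 scale, and Klf4 went from 88.4, 88.5 and 90.8 FPKM to 51.5, 51.6 and 54.5 FPKM. Nr0b1 (-0.62) and Tet2 (-0.59), an enzyme that oxidises methylated cytosine, were the others called lower. Against 240 h ctrl, Nr0b1 differed by -0.52 and was not called. Tet2 lost its call without replicate 1 of 48 h ctrl (-0.54), replicate 1 of 72 h kd (-0.57) or replicate 3 of 72 h kd (-0.57).

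Of the primed epiblast genes, which mark the later state closer to gastrulation, 11 could be tested and 8 were called (72.7%), all lower, with a median of -1.12. The 8 were Lef1, Fgf15, Otx2, Sox3, Pou3f1, Zic2, Zic5 and Dnmt3b. Otx2, a transcription factor of the primed state, had 0.709, 0.698 and 0.689 FPKM in 48 h ctrl and 0.189, 0.170 and 0.201 FPKM in 72 h kd, a change of -1.87 (SE 0.14, limma adjusted p = 3.2e-11). Pou3f1 (Oct6) had 7.41, 6.54 and 7.07 FPKM in ctrl and 2.88, 3.13 and 3.27 FPKM in kd, a change of -1.17. Dnmt3b, which sets new DNA methylation, had 8.55, 8.27 and 8.10 FPKM in ctrl and 4.70, 4.75 and 4.77 FPKM in kd, a change of -0.81. Fgf15, a secreted growth factor, fell by 2.06, and its span overlaps Gm39119 and Gm26793. Against 240 h ctrl the count was again 8 lower and 0 higher of 11. Foxd3 is listed at 0 in all 6 libraries. So are mt-Co2 and mt-Co3 of the mitochondrial genome, and whether a listed 0, here or below, means absent transcript was not tested.

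At 240 h the same list had 3 genes higher and 4 lower of 11. Otx2 had a mean of 0.823 ± 0.102 FPKM in 240 h kd against 0.589 ± 0.0556 in 240 h ctrl (SD, n = 3 each), a difference of 0.48 that was not called. The 72 h and 240 h changes of Otx2 differed by -2.35 (limma interaction, adjusted p = 2e-10). Dnmt3b was called higher at 240 h, by 0.90.

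Within the BAF family itself, 26 of 28 subunit genes were tested, 1 was higher and 2 were lower, a share of 11.5% against 22.3% of all genes. The scaffold subunit Smarcc2 had 1.19, 1.10 and 1.08 FPKM in 48 h ctrl and 1.79, 1.85 and 1.86 FPKM in 72 h kd, a rise of 0.71 (SE 0.06, limma adjusted p = 1.19e-10). It was not called against 240 h ctrl (0.44). Besides Smarcb1, Smarcd3 was called lower (-0.60), a gene whose span overlaps Chpf2. Smarcd3 was not called against 240 h ctrl (-0.54), without replicate 3 of 48 h ctrl (-0.50) or without replicate 3 of 72 h kd (-0.55). The ATPase Smarca4 (Brg1) had 5.06, 4.99 and 4.90 FPKM in ctrl and 4.79, 4.59 and 4.76 FPKM in kd, a difference of -0.08, and Arid1a, the subunit that defines canonical BAF, differed by 0.02. Pbrm1 and Arid2, subunits of PBAF, differed by -0.08 and 0.13, and Brd9, of noncanonical BAF, by 0.24. Farther from 0 but not called were Bcl7c (0.57), Ss18l1 (0.52), Dpf1 (-0.48), Smarcd1 (-0.42) and Smarca2 (-0.61, limma adjusted p = 0.0663). Smarca2 had 16 to 28 reads per ctrl library and 10 to 20 per kd library. Against 240 h ctrl, 1 gene of the list was higher, Bcl7c (0.68), and 3 were lower, Smarcb1, Dpf1 (-0.70) and Smarca2 (-0.68).

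Of the 12 PRC2 genes, 2 were higher and 3 lower (41.7% called, median -0.12). The catalytic subunit Ezh2 had 3.68, 3.78 and 3.52 FPKM in 48 h ctrl and 2.82, 2.82 and 2.82 FPKM in 72 h kd, a difference of -0.38 (SE 0.04, limma adjusted p = 6.91e-09), below the fold threshold. Its paralogue Ezh1 rose by 0.61, from 1.33, 1.22 and 1.26 FPKM to 2.01, 1.91 and 1.90 FPKM, and lost its call by a narrow margin without replicate 2 of 48 h ctrl (0.58). Suz12, which holds the complex together, differed by 0.54 and was not called. Among the accessory subunits, Phf19 fell from 0.698, 0.676 and 0.671 FPKM to 0.239, 0.240 and 0.156 FPKM (-1.69) and Epop from 296, 317 and 324 FPKM to 193, 189 and 201 FPKM (-0.68). Phf1 rose by 0.65, or by 0.57 and without a call when replicate 2 of 48 h ctrl was left out. It overlaps Cuta among other genes, and the overlapping gene with most reads holds 7.92 times as many as Phf1. At 240 h, Phf19, Epop, Ezh1 and Phf1 were not called, and Aebp2, which differed by -0.12 at 72 h, was called higher by 1.13.

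For PRC1, 1 gene was higher and 1 lower of 18 tested (median 0.14), a share of 11.1% against 22.3% of all genes. Bmi1, a Polycomb ring finger protein, had 0.622, 0.525 and 0.643 FPKM in 48 h ctrl and 1.31, 1.47 and 1.44 FPKM in 72 h kd, a rise of 1.22 (SE 0.12, limma adjusted p = 4.24e-09). Bcor, a corepressor in a variant PRC1 complex, had 0.572, 0.487 and 0.509 FPKM in ctrl and 0.162, 0.144 and 0.163 FPKM in kd, a fall of 1.73 on the log2 scale. Both were called in the same direction at 240 h (0.96 and -1.33).

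**Figure D4:**
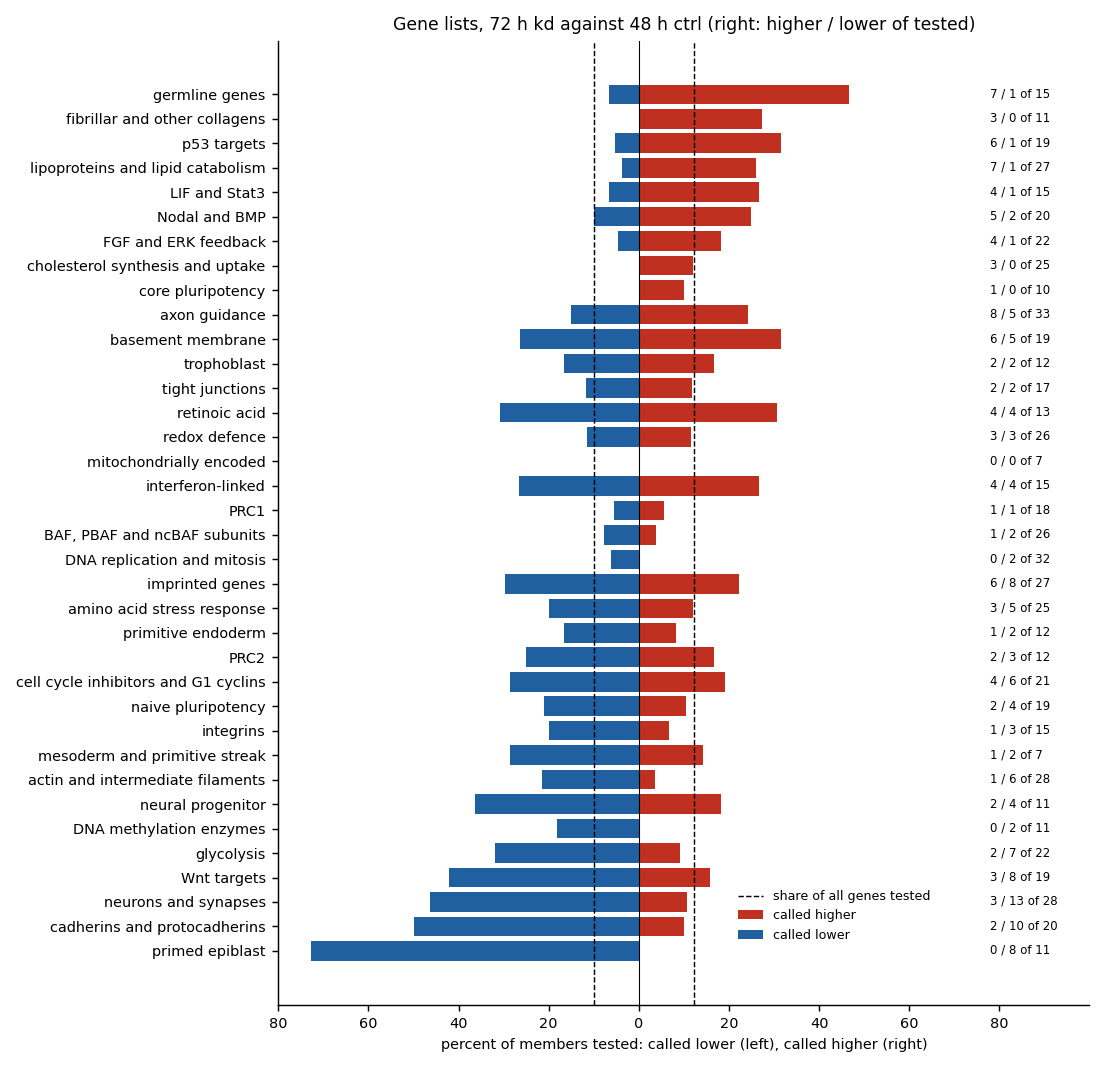
Share of tested members called lower (to the left) and called higher (to the right) in 72 h kd against 48 h ctrl, in percent, for 36 gene lists with 5 or more tested members. Dashed lines mark the shares over all genes tested, 10.0% lower and 12.3% higher. Primed epiblast genes reach farthest to the left, followed by cadherins, neuronal genes and Wnt targets, and germline genes reach farthest to the right.

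Genes of neurons and synapses were called lower in 13 and higher in 3 of 28 tested (57.1% called, median -0.42). The neurofilament genes Nefl and Nefm fell by 1.88 and 1.76 on the log2 scale. Their spans overlap each other, so these are not separate measurements. Gap43, a growth cone protein, had 0.383, 0.392 and 0.360 FPKM in 48 h ctrl and 0.119, 0.149 and 0.139 FPKM in 72 h kd, a change of -1.48 (SE 0.09, limma adjusted p = 3.37e-13). The vesicle protein Syp rose by 1.36, the RNA-binding protein Elavl4 by 0.76 and the SNARE protein Snap25 by 0.69, the last at 0.58 and not called without replicate 2 of 72 h kd. At 240 h Snap25 was called lower (-1.03, limma adjusted p = 0.00146). Dcx, a marker of young neurons, is listed at 0 in all 6 libraries, which may not mean absent transcript. The summed level of the list was 55.9 to 57.4 FPKM in ctrl and 44.1 to 44.5 FPKM in kd. Against 240 h ctrl, 12 were lower and 4 higher.

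Of 27 neural progenitor genes, 11 could be tested, with 2 higher and 4 lower (54.5% called, median -0.48). Sox1, the early neuroectodermal transcription factor, had 4.57, 5.15 and 4.35 FPKM in 48 h ctrl and 14.7, 16.2 and 16.6 FPKM in 72 h kd, a rise of 1.75 (SE 0.07, limma adjusted p = 1.23e-16). It lies within Sox1ot. Pax6, an eye and brain transcription factor, moved the other way, from 0.407, 0.368 and 0.425 FPKM to 0.115, 0.117 and 0.119 FPKM (-1.74). The transcription factor Sox21 (-0.88) and the membrane protein Prom1 (-0.99) fell too. Prom1 was also lower at 240 h than at 48 h in untreated cells (-0.62) and was not called against 240 h ctrl (-0.36). At 240 h Pax6 had 0.339 ± 0.0443 FPKM in kd and 0.282 ± 0.0342 FPKM in ctrl (SD, n = 3 each) and was not called, while Sox1 was called higher by 1.56.

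In axon guidance, 8 of 33 genes were higher and 5 lower (39.4% called, median -0.05). The ligands Sema3e (1.97), Sema4b (1.12), Sema4c (1.12) and Efnb1 (0.70) rose, together with Slit1, Rgma, Efna1 and the receptor Plxna1. The receptors Nrp2 (-2.0), Plxna2 (-1.74), Epha7 (-1.44) and Robo1 fell. Sema5a fell too (-0.78) but was not called against 240 h ctrl (-0.29). Sema3e had 0.151, 0.129 and 0.134 FPKM in 48 h ctrl and 0.573, 0.511 and 0.544 FPKM in 72 h kd, while Nrp2 had 0.566, 0.525 and 0.536 FPKM in ctrl and 0.141, 0.127 and 0.136 FPKM in kd. Both were called in the same direction at 240 h (2.18 and -2.0).

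Of 20 cadherins, protocadherins and desmosomal partners tested, 10 were lower and 2 higher (60.0% called, median -0.48). Cdh2 (N-cadherin) fell by 2.71 on the log2 scale, from 91 to 115 reads per 48 h ctrl library to 14 to 20 per 72 h kd library. Cdh4 (R-cadherin) fell by 2.20, and Ctnnd2, a delta catenin, by 1.87. Jup, the plakoglobin of desmosomes and adherens junctions, had 4.87, 4.98 and 5.12 FPKM in ctrl and 2.69, 2.60 and 2.75 FPKM in kd (-0.90, SE 0.04, limma adjusted p = 9.35e-15). Celsr3 (0.99) and Celsr1 (0.82), atypical cadherins of planar polarity, were the genes that rose. Cdh2 differed by -0.06 at 240 h and was not called there.

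Of 15 integrins, 3 were lower and 1 higher, with Itga9 (-1.54), Itgb7 (-1.12) and Itga3 (-0.66) falling, the last at -0.54 and not called without replicate 2 of 72 h kd. At 240 h Itga3 was called in the opposite direction (0.74, limma adjusted p = 3.9e-08). Tight junction genes were lower in 2 and higher in 2 of 17. The shares called, 26.7% of the integrins and 23.5% of the tight junction genes, were near the 22.3% of all genes tested. The claudin Cldn3 rose by 1.06 and was lower at 240 h than at 48 h in untreated cells (-0.83). Marveld3 fell by 1.09. Cldn7 (-0.59) was not called against 240 h ctrl (-0.18), without replicate 3 of 48 h ctrl (-0.54) or without replicate 2 of 72 h kd (-0.49).

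Basement membrane genes moved in both directions, 6 higher and 5 lower of 19 (57.9% called). Besides Lama1, the collagen IV chain Col4a1 (-0.68), which overlaps Col4a2, was among those called lower. Lamb2, another laminin chain, rose from 4.26, 4.002 and 4.03 FPKM to 7.77, 7.87 and 7.79 FPKM (0.93, SE 0.05, limma adjusted p = 6.26e-14). Lama5, Col18a1 and Lamc1 rose by 0.73, 0.73 and 0.72. These last 3 were not called against 240 h ctrl, where they differed by 0.23, 0.53 and 0.43, and that control left 3 genes higher and 5 lower. Among other collagens 3 of 11 were higher and 0 lower, with Col22a1 at 1.80 and Col13a1 at 1.77. That is 27.3% called, near the 22.3% of all genes, of which 12.3% were higher.

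Of 28 genes of actin and intermediate filaments, 6 were lower and 1 higher (median -0.27), and the share called, 25%, was near the 22.3% of all genes tested. The keratin Krt17 had 6.62, 7.33 and 7.67 FPKM in 48 h ctrl and 2.60, 2.29 and 2.41 FPKM in 72 h kd (-1.56), and Krt42 fell by 1.86. Actg1, the cytoplasmic gamma actin, had 154, 161 and 163 FPKM in ctrl and 97.9, 96.8 and 99.3 FPKM in kd (-0.70, SE 0.04, limma adjusted p = 3.28e-14). Ezr, which links actin to the membrane, fell by 0.71, and Krt19 and Myl6 were also called lower and Cnn1 higher. Actg1 differed by -0.01 at 240 h and was not called there.

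Lipoprotein and lipid catabolism genes were called higher in 7 and lower in 1 of 27 (29.6% called against 22.3% of all genes, median 0.18). The summed level of the list was 161 to 172 FPKM in 48 h ctrl and 682 to 698 FPKM in 72 h kd, most of it Apoe. Apoc1, an apolipoprotein encoded beside Apoe on chromosome 7, had 1.19, 1.65 and 1.39 FPKM in ctrl and 6.93, 6.64 and 6.89 FPKM in kd, a rise of 2.26 (SE 0.12, limma adjusted p = 6.32e-14). Pltp, the phospholipid transfer protein, had 3.27, 3.23 and 3.31 FPKM in ctrl and 15.4, 14.7 and 15.03 FPKM in kd, a rise of 2.20 (SE 0.04, adjusted p = 1.08e-22). Its span overlaps Ctsa, which was called higher by 0.96. Abhd5, an activator of triglyceride lipase, rose by 0.83, and the others called were Acads, Acadvl and Cpt1a, of fatty acid oxidation. Lpl, lipoprotein lipase, was the gene that fell (-1.18). In cholesterol synthesis and uptake 3 of 25 were higher and 0 lower, and these 12% were near the 12.3% called higher over all genes. Among them were Mvk, mevalonate kinase (0.66), and Tm7sf2 (0.63). Tm7sf2 overlaps Vps51 and was not called without replicate 3 of 72 h kd (0.56).

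Glycolytic genes were lower in 7 and higher in 2 of 22 (40.9% called, median -0.31). Ldha, lactate dehydrogenase A, had 86.6, 92.2 and 98.3 FPKM in 48 h ctrl and 44.5, 46.7 and 46.4 FPKM in 72 h kd (-1.01, SE 0.04, limma adjusted p = 3.51e-16). Pfkp, the platelet form of phosphofructokinase, fell by 1.41, Pgam1 by 0.93 and Tpi1 by 0.72 on the log2 scale. The forms Pfkm (0.63) and Ldhb (0.62) of phosphofructokinase and lactate dehydrogenase rose, Ldhb at 0.58 and not called without replicate 1 of 48 h ctrl. At 240 h Ldhb was called lower (-1.18, limma adjusted p = 4.7e-11). Pfkm overlaps Senp1 and Pfkp overlaps Pitrm1. Against 240 h ctrl, 5 genes were lower and 6 higher, and the 6 glycolytic genes named here were called there in the same direction.

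Of 21 cell cycle inhibitors and G1 regulators, 4 were higher and 6 lower (47.6% called). Cdkn1a (p21), an inhibitor of cyclin-dependent kinases, had 5.15, 5.37 and 5.65 FPKM in 48 h ctrl and 15.7, 15.99 and 15.4 FPKM in 72 h kd, a rise of 1.54 (SE 0.05, limma adjusted p = 1.28e-18). Cdkn2a, the Ink4a/Arf gene, had 0.224, 0.174 and 0.201 FPKM in ctrl and 0.345, 0.397 and 0.399 FPKM in kd, a rise of 0.92 at 39 to 62 and 89 to 107 reads per library. Rb1, the retinoblastoma gene, rose by 0.68, and Cdkn2b was the other gene called higher. Ccnd1 (cyclin D1) fell from 24.8, 25.9 and 26.6 FPKM to 10.8, 10.8 and 11.1 FPKM (-1.24), Ccnd2 by 2.20 and E2f2 by 1.13 on the log2 scale. The inhibitor Cdkn1c (p57) fell by 1.76. The counts against 240 h ctrl were again 4 higher and 6 lower. Of 32 genes of DNA replication and mitosis, 2 were called, Birc5 (-0.61) and Pcna (-0.60), a share of 6.25% against 22.3% of all genes. Neither was called against 240 h ctrl (-0.57 and -0.57), nor was Birc5 without replicate 3 of 48 h ctrl (-0.57) or of 72 h kd (-0.57).

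Known p53 targets were higher in 6 and lower in 1 of 19 (36.8% called, median 0.40). Besides Cdkn1a these were Mdm2, the ubiquitin ligase of p53, Plk2, Trp53inp1, Phlda3 and Ei24. Mdm2 had 6.49, 6.18 and 6.44 FPKM in 48 h ctrl and 12.6, 13.6 and 12.9 FPKM in 72 h kd, a rise of 1.03 (SE 0.04, limma adjusted p = 1.46e-16). Plk2 rose by 0.91 and Trp53inp1 by 0.90. Perp, a desmosomal tetraspan protein, was the exception, with 5.74, 6.42 and 6.09 FPKM in ctrl and 2.13, 2.04 and 2.08 FPKM in kd (-1.54). Against 240 h ctrl 6 were higher and 1 lower, and at 240 h 3 were higher and 0 lower.

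Wnt targets and effectors were lower in 8 and higher in 3 of 19 (57.9% called, median -0.42). Lef1, a transcription factor of the pathway, had 0.141, 0.116 and 0.106 FPKM in 48 h ctrl and 0.0117, 0.00995 and 0.0119 FPKM in 72 h kd. This is 137 to 220 reads per ctrl library and 14 to 18 per kd library, a log2 change of -3.33 (SE 0.17, limma adjusted p = 2.46e-14). Axin2, the negative feedback regulator, had 0.357, 0.379 and 0.409 FPKM in ctrl and 0.146, 0.149 and 0.148 FPKM in kd (-1.35), and Tcf7l2 fell by 1.30. Ccnd1, Sp5, Notum and the ligands Wnt7b and Wnt6 were the others called lower. The receptor Fzd2 rose by 1.30, from 4.38, 3.82 and 4.12 FPKM to 10.5, 9.68 and 10.2 FPKM, and the antagonists Nkd1 (1.11) and Nkd2 (0.66) rose with it. Against 240 h ctrl, 9 were lower and 3 higher.

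Genes of the Nodal and BMP pathways were higher in 5 and lower in 2 of 20 (35.0% called, median 0.19). The ligand Nodal itself had 6.73, 7.06 and 7.10 FPKM in 48 h ctrl and 13.8, 14.4 and 14.4 FPKM in 72 h kd, a rise of 1.02 (SE 0.05, limma adjusted p = 4.27e-15). Its antagonist Lefty1 rose by 1.06, from 42.5, 48.02 and 49.2 FPKM to 94.7, 96.6 and 100.2 FPKM, and the ligand Bmp7 by 1.03. Smad6, an inhibitor of BMP signalling, rose by 0.85. Bmp4 (-0.94) and Inhbb (-1.52), a subunit of activin, fell. Inhbb had 12.6, 12.7 and 11.96 FPKM in ctrl and 4.11, 4.42 and 4.47 FPKM in kd.

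LIF and Stat3 genes were higher in 4 and lower in 1 of 15 (33.3% called, median 0.21). The kinase Pim1, a Stat3 target, had 25.01, 24.3 and 25.97 FPKM in 48 h ctrl and 72.7, 68.3 and 72.1 FPKM in 72 h kd, a rise of 1.5 (SE 0.04, limma adjusted p = 1.06e-19). The LIF coreceptor Il6st (0.76) and the kinase Jak1 (0.64) rose, and Ier3 fell by 0.65 without a call against 240 h ctrl (-0.42). Of 22 genes of FGF and ERK signalling, 4 were higher and 1 lower, and the share called, 22.7%, was near that of all genes. The early response genes Fos (1.63), which is in both lists, and Egr1 (1.19) rose, and Fosl2, of the same family as Fos, was the gene called lower. Egr1 had 3.06, 3.60 and 2.82 FPKM in ctrl and 10.1, 6.10 and 6.03 FPKM in kd. It was higher at 240 h than at 48 h in untreated cells (0.66) and was not called against 240 h ctrl (0.52). Fgfr1, a receptor of the pathway, rose by 0.76 and Dusp5, a phosphatase that acts on ERK, by 0.86.

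Germline genes were higher in 7 and lower in 1 of 15 (53.3% called, median 0.66). Zcwpw1, a histone reader of meiosis, had 0.339, 0.293 and 0.347 FPKM in 48 h ctrl and 0.756, 0.695 and 0.653 FPKM in 72 h kd, a rise of 1.10 (SE 0.09, limma adjusted p = 2.76e-10). Hormad1, a meiotic axis protein, rose by 1.09, Mael, of the piRNA pathway, by 0.97 and Dpep3 by 1.55, the last at 18 to 32 reads per ctrl library and overlapping Gm45752. Stra8, Dazl and Sycp3 were also called higher and Tdrd1 lower. At 240 h, 10 of 15 were higher and 0 lower, where 1623 of all 16633 genes tested were called higher.

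Imprinted genes were higher in 6 and lower in 8 of 27 (51.9% called, median -0.14). The maternally expressed noncoding RNAs Meg3 (0.89) and Mirg (0.82), which lie in the same cluster on chromosome 12, rose, as did Sgce (1.08). The growth factor Igf2 rose by 0.88 without a call against 240 h ctrl (0.47). Grb10, an adaptor of growth factor receptors, fell from 0.511, 0.537 and 0.534 FPKM to 0.157, 0.154 and 0.171 FPKM (-1.71, SE 0.06, limma adjusted p = 1.23e-16), and Nnat (-2.13), Cdkn1c (-1.76) and Peg13 (-1.54) fell too. Nnat overlaps Blcap and Peg13 overlaps Trappc9, and the overlapping genes hold more reads. Grb10, Nnat, Cdkn1c and Peg13 were not called at 240 h.

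Genes linked to interferon and antigen presentation were higher in 4 and lower in 4 of 15 (53.3% called, median 0.12). Tap1, a peptide transporter, had 0.384, 0.382 and 0.356 FPKM in 48 h ctrl and 1.84, 1.65 and 1.57 FPKM in 72 h kd, a rise of 2.14 (SE 0.12, limma adjusted p = 3.44e-13). B2m, the light chain of MHC class I, rose by 1.84 and overlaps Patl2. The antiviral genes Bst2 (1.45) and Ifitm1 (0.63) rose, Ifitm1 at 0.57 and not called without replicate 1 of 48 h ctrl. The transcription factor Irf1 fell (-0.66) and was not called against 240 h ctrl (-0.55).

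In redox defence 3 genes were higher and 3 lower of 26 (median 0.09), and the share called, 23.1%, was near the 22.3% of all genes. Ucp2, an uncoupling protein of mitochondria, had 12.99, 14.3 and 14.6 FPKM in 48 h ctrl and 3.39, 3.69 and 3.84 FPKM in 72 h kd, a change of -1.94. Prdx6, a peroxiredoxin, fell by 1.01, Gpx2 was also called lower, and the glutathione peroxidase Gpx4 (0.81), Gclm (0.72), of glutathione synthesis, and the catalase Cat (0.61) rose. Gclm overlaps Gm6061 and Gm17494. Amino acid stress genes were higher in 3 and lower in 5 of 25 (32.0% called against 22.3% of all genes), and against 240 h ctrl 4 were higher and 0 lower. The falls of Stc2 (-0.70), Nupr1 (-0.66), Shmt2 (-0.61) and Vldlr (-0.59) were not called there (-0.39, -0.09, -0.51 and -0.04). Shmt2 was not called without replicate 3 of 48 h ctrl either (-0.58), nor was Vldlr without that library (-0.52) or replicate 2 (-0.52) or 3 (-0.48) of 72 h kd. Gdf15 (1.33), Ddit4 (0.85) and Pycr1 (0.78) were higher against both groups of untreated cells.

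Markers of other cell types were measured in the same libraries. Of 12 feeder fibroblast markers, 4 reached the minimum of reads, with 2 higher and 1 lower, and the summed level of the list was 1.43 to 1.60 FPKM in 48 h ctrl and 1.32 to 1.38 FPKM in 72 h kd. Mgp is listed at 0, and whether such a 0 means absent transcript was not tested. Primitive endoderm markers summed to 4.12 to 4.16 FPKM in ctrl and 2.85 to 3.02 FPKM in kd, with 12 of 20 tested, 1 higher and 2 lower, and Afp listed at 0. Mesoderm and primitive streak markers summed to 7.95 to 8.43 FPKM in ctrl and 4.75 to 5.42 FPKM in kd, with 1 higher and 2 lower of 7 tested. Trophoblast markers summed to 38.9 to 41.5 FPKM in ctrl and 48.6 to 50.1 FPKM in kd, with 2 higher and 2 lower of 12 tested. Tfap2c, also a germ cell factor, rose from 8.43, 8.69 and 9.19 FPKM to 16.9, 16.7 and 16.3 FPKM (0.92), and Tead4 fell by 1.65. The shares called were 75.0% of the feeder, 25% of the endoderm, 42.9% of the mesoderm and 33.3% of the trophoblast markers tested, against 22.3% of all genes, and the feeder and mesoderm shares rest on 4 and 7 genes. In bulk RNA, more cells of a type and more RNA per cell cannot be told apart, and the part of other cell types in the results above was not tested.

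The 72 h kd libraries were set against the 48 h kd libraries to see what moved in the last day, with 2074 of 16104 genes called (12.9%), 1112 higher and 962 lower. This comparison shares the 72 h kd libraries with the main one, so values are given side by side. Tmsb4x differed by -1.63 between the kd times, with 86.1 ± 3.73 FPKM at 48 h and 27.8 ± 0.466 at 72 h (SD, n = 3 each). Ap3b2 differed by 2.07 and Got1l1 by 1.93, whereas Kit differed by -0.24 and Lama1 by -0.53, neither of them called. Tgm2 differed by 0.71, Apoe by 0.98 and Eed by -0.63.

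The prolonged knockdown at 240 h has its own control and shares no library with the 72 h comparison. There 2946 of 16633 genes were called (17.7%), 1623 higher and 1323 lower. Of the 1893 genes called higher at 72 h that could be tested at 240 h, 626 (33.1%) were higher there too, which is 38.6% of the genes higher at 240 h. Of the 1598 called lower, 626 (39.2%) were lower there, or 47.3% of the genes lower at 240 h. Opposite calls were made for 129 of the 15900 genes tested in both, 51 of them higher at 72 h and 78 lower. A fit of the 12 libraries found that the 72 h and 240 h changes differed in 2980 of 16439 genes, by the same adjusted p and the same fold threshold as the calls. Emp1 (-4.54 and -4.30), Kit (-2.60 and -2.42) and Dmrt1 (2.53 and 2.32) had calls of 1 sign at both times. The differences between the changes were -0.24 in Emp1 (limma adjusted p = 0.262), -0.18 in Kit (adjusted p = 0.103) and 0.21 in Dmrt1 (adjusted p = 0.0404), and none passed both thresholds. Tgm2 had 3.45 at 72 h and 1.44 at 240 h, and the difference of 2.00 passed the interaction test (limma adjusted p = 6.53e-14), as did those of Apoe (1.44, adjusted p = 1.36e-14) and Tmsb4x (-1.54, adjusted p = 1.24e-14).

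**Figure D5:**
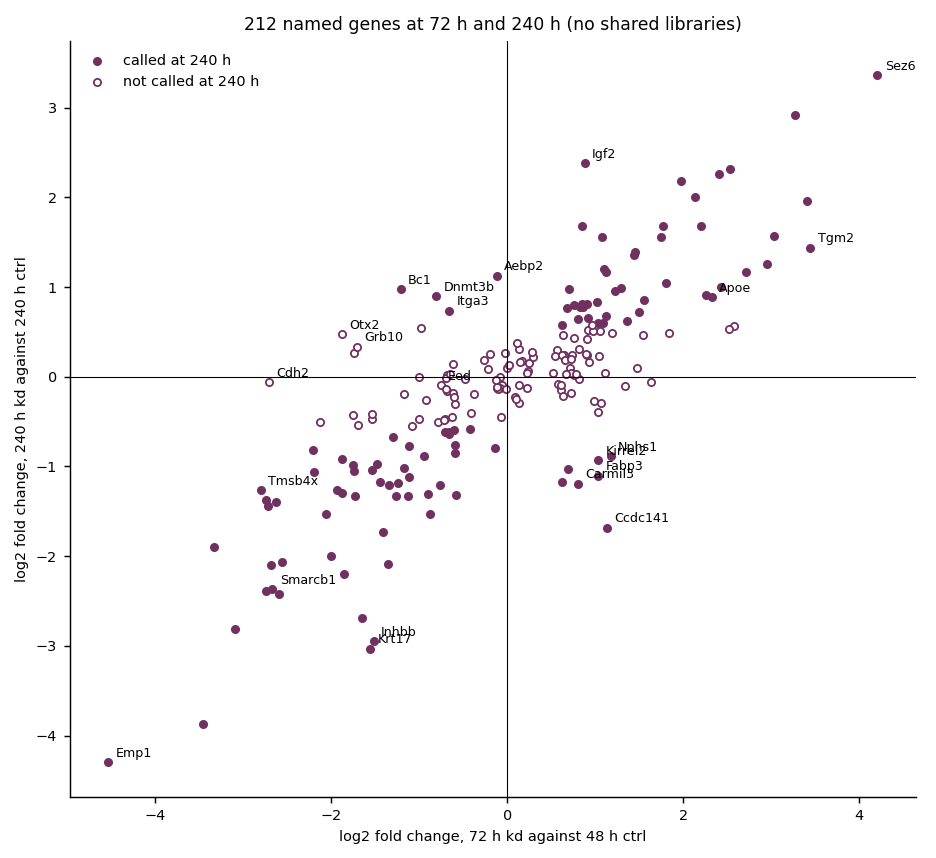
Log2 fold change of 212 named genes at 72 h (72 h kd against 48 h ctrl, horizontal axis) and at 240 h (240 h kd against 240 h ctrl, vertical axis). Filled points are the 108 genes called at 240 h and open points the 104 not called there. Emp1 lies far down at the left and Sez6 far up at the right, and Ccdc141, Fabp3, Kirrel2, Nphs1 and Carmil3 lie right of 0 and below 0.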

How the data were processed

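Total RNA of 15 mESC libraries was sequenced as single reads on an Illumina NextSeq instrument. The deposited values are FPKM per gene, which the authors computed on the whole gene span after alignment to mm10 (GRCm38.p6). The submitters' processing notes name STAR 2.7.0c, DESeq2 1.30.0 and R 4.0.3. Counting ignored strand, so overlapping genes share reads, and reads of long introns enter the level. Counts as such were not used here. FPKM times span gave whole reads in 100% of values at a tolerance of 0.001, and FPKM times span in kb gave RPM, the reads scaled to library size.

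Groups of 3 libraries were compared with limma 3.58.1 in R 4.3.3 (trended prior, two-sided) on log2(RPM + 0.1), for genes with a mean of 10 or more reads, with Benjamini-Hochberg adjustment over all genes tested. Calls needed an adjusted p under 0.05 and a log2 fold change beyond 0.58 in size, the thresholds of the study. Fold changes on this scale understate those of low genes. The interaction was fitted over 12 libraries. Tables and figures were made with Python 3.11.15, numpy 2.4.6, pandas 2.3.3 and matplotlib 3.10.9. Of 55228 genes listed, 53297 (96.5%) matched GENCODE M21, which gave gene types and overlaps.

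Members, gene lists and named genes were chosen with earlier results of these data known. Named were Smarcb1, Apoe, Tgm2 and Eed, the 12 largest called rises and falls with a mean of 100 or more reads, no overlap between groups and no predicted or small RNA gene, up to 4 called members per list and direction with a mean of 50 or more reads, all core pluripotency, BAF and PRC2 members, and the 6 largest opposite calls at 240 h. Other called list members are given by name only. Some genes that the rule names are not reported here. Rprd1b, Gm20412 and Ctsa were named after their values were seen, since they overlap named genes.

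In simulated data with 200 genes changed 2-fold, the fit of 72 h kd against 48 h ctrl recovered 95% with 8 false calls among 16184 genes. The simulation gave all genes the same fixed spread between libraries and changed only genes above a higher read minimum than that of the test. Its figures need not hold for the real calls, of which 1365 had a mean under 50 reads. Alternatives were other pseudocounts, read minimums, scalings, fold thresholds and variance priors, a replicate block, each library left out, overlapping genes left out and other control groups.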

Additional observations from a re-analysis of the deposited data

Results flagged for a closer look

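Of the 129 genes called in opposite directions at 72 h and at 240 h, the 6 with the largest changes in both are given here. The 72 h change is 72 h kd against 48 h ctrl and the 240 h change is 240 h kd against 240 h ctrl. The genes were chosen for opposite calls, so the difference between the changes, from a limma fit of the 12 libraries, describes that choice and is no independent test. Ccdc141, a centrosome-linked protein, had 0.236, 0.227 and 0.230 FPKM in 48 h ctrl and 0.531, 0.497 and 0.491 FPKM in 72 h kd, a change of 1.13, against -1.68 at 240 h, and the difference was 2.81 (SE 0.10). Fabp3, a fatty acid-binding protein that overlaps Zcchc17, had 1.04 at 72 h and -1.10 at 240 h, a difference of 2.14. Kirrel2 (1.03 and -0.93) and Nphs1 (1.18 and -0.89), which encode slit diaphragm proteins of the nephrin family, differed by 1.97 and 2.06. Carmil3, a regulator of actin capping, had 0.81 at 72 h and -1.19 at 240 h, a difference of 2.00. The neuronal noncoding RNA Bc1 went the other way, with 335, 347 and 254 FPKM in 48 h ctrl and 102, 168 and 138 FPKM in 72 h kd, a change of -1.21, against 0.98 at 240 h, a difference of -2.19. The 2 comparisons differ in duration of knockdown and in whether the control was sampled at the same time, and these cannot be told apart.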

How the results depend on the processing

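The count of 3597 of 16146 genes called in 72 h kd against 48 h ctrl became 2232 of 12543 with a minimum of 50 reads. It became 1548 of 11440 on log2(FPKM + 0.1) with a minimum mean of 0.5 FPKM, where scale and filter change together. Without overlapping genes it was 1504 of 6421, and above a log2 fold change of 1 it was 1453 of 16146. The 50-read, FPKM and overlap filters leave fewer genes to test in every comparison. The same settings gave 2691, 1901, 1741 and 1701 against 240 h ctrl, 1206, 857, 871 and 616 against 48 h kd, 1663, 1016, 1286 and 1367 at 240 h, and 107, 54, 68 and 50 between the untreated groups. Without a trend in the prior variance, limma called 0 genes between the untreated groups, where 3905 genes had an unadjusted p under 0.05. Leaving out each library gave 3493 to 3603 calls in the main comparison, 4053 to 4246 against 240 h ctrl, 1823 to 2174 against 48 h kd, 2696 to 2981 at 240 h, and 95 to 308 between the untreated groups, with 95 without replicate 3 and 125 without replicate 2 of 48 h ctrl. Among the named genes, 0 that were called in the main comparison or under the alternative in question changed direction. Uncalled genes could change sign, as did Arid1a, with 0.02 in the main comparison and -0.33 against 240 h ctrl. Under alternatives, 138 values of the named genes lost a call and 11 gained one. The fold threshold of 1, which can only remove calls, gave 70 of the 138.

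By the rule that every pair's correlation exceed 0.1, replicate numbers did not pair the samples in any of the 5 comparisons, and in none did every library correlate best with its own number. Deviations of same-numbered 72 h kd and 48 h ctrl libraries correlated at 0.0082, -0.038 and 0.090 over 12543 genes. Between the untreated groups the values were 0.366, -0.024 and 0.250 over 12490 genes, so pairs 1 and 3 deviated together and pair 2 did not. A replicate block gave 3587 calls in the main comparison, 4249 against 240 h ctrl, 2135 against 48 h kd, 2960 at 240 h and 333 between the untreated groups, where genes at an unadjusted p under 0.05 went from 4586 to 5767.

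Genes under the mean of 10 reads were not tested, and 1365 of the calls rest on a mean of under 50 reads. The reasons for the changes in count under other scales and minimums were not tested beyond the smaller number of genes that some of these settings leave.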

Other observations

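Retinoic acid genes were higher in 4 and lower in 4 of 13 tested in 72 h kd against 48 h ctrl (61.5% called, against 22.3% of all genes, median log2 fold change -0.18). Tgm2, Stra6 and Stra8 were among the genes called higher. Crabp1, which binds retinoic acid in the cytoplasm, had 2.99, 3.30 and 3.32 FPKM in 48 h ctrl and 1.16, 1.43 and 1.15 FPKM in 72 h kd, a change of -1.36 (SE 0.09, limma adjusted p = 1.06e-11), and Rxrg and Aldh1a2 were lower too. Among 11 enzymes of DNA methylation, Dnmt3b and Tet2 were lower and 0 were higher (18.2% called).

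Of 19 genes of the 2-cell-like state 1 could be tested, and it was not called. Mitochondrially encoded genes were called in neither direction among the 7 tested (median -0.08), while 4 of the 13 in the list, mt-Nd4l, mt-Co2, mt-Co3 and mt-Atp8, are listed at 0 in all 6 libraries. The homeobox gene Esx1, a marker of trophoblast, had 0.392, 0.459 and 0.409 FPKM in 48 h ctrl and 1.03, 1.34 and 1.16 FPKM in 72 h kd, a rise of 1.45 from 31 to 36 reads per ctrl library, and was also called higher at 240 h (1.39). Loxl1, an extracellular crosslinking enzyme in the feeder fibroblast list, rose by 0.96 from 40 to 56 reads per ctrl library.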
